A study of Mus musculus with 12 samples.

Results

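The SLC25 carriers are the proteins that move metabolites across the inner mitochondrial membrane, and 43 genes of the family were examined here among 19938 genes measured on expression arrays. They are the genes with a symbol of the form Slc25a followed by a number, read by a probe set assigned to exactly 1 gene, except Slc25a1, Slc25a17 and Slc25a20, which were kept apart. Where a gene had several probe sets, the one with the highest mean signal over all samples was used. The samples were mouse embryonic fibroblasts (MEFs) taken at embryonic day 14, with C57BL6 given as the strain, and there were 12 of them in 4 groups of 3. In the first 2 groups the cells were D1D2KO, which by the title of the series lack the DGAT enzymes of triacylglycerol synthesis, and they were sampled as differentiated adipocytes or undifferentiated fibroblasts. The other 2 groups were wild-type (WT) cells in the same states. All cells were grown in DMEM with 10% serum. Differentiation started 2 days after confluency with dexamethasone (1 µM), isobutylmethylxanthine (500 µM), insulin (5 µg/ml) and troglitazone (15 µM), a ligand of the nuclear receptor PPARγ, for 2 to 3 days. Insulin and troglitazone at the same doses followed for 2 days, and then plain medium until harvest. Time in culture and the agents therefore differed together with the state, and their effects cannot be told apart. The series calls the 3 samples of a group biological replicates. Which embryo or culture each came from was not stated by the labels, and neither was the way each DGAT gene was disrupted, and a p-value here reflects only how much such samples vary, which may be technical.

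As background, carriers of this family are small proteins encoded in the nucleus, made in the cytosol and inserted into the inner mitochondrial membrane by a dedicated set of import proteins. Most of them exchange one solute for another, such as ADP for ATP or malate for phosphate, and so link the chemistry of the matrix to that of the cytosol. In fat cells they supply the citrate and the reducing power for fatty acid synthesis, the nucleotides and phosphate for respiration, and the cofactors of mitochondrial enzymes.

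Every value below is a log2 array signal, as deposited, and every difference is in log2 units with the standard error (SE) of a linear model (limma) over all 12 arrays. Calls required an adjusted p under 0.05, with the Benjamini-Hochberg adjustment made over all 19938 genes. Samples of 1 group correlated at 0.993 to 0.997 across these genes. Dgat1 lay 1.39 (SE 0.11) below WT in D1D2KO differentiated cells and 1.34 (SE 0.11) below it in undifferentiated cells. For Dgat2 the difference was -1.67 (SE 0.13) in differentiated and -0.47 (SE 0.13) in undifferentiated cells. Both still rose on differentiation in D1D2KO cells, Dgat1 by 2.41 (SE 0.11) and Dgat2 by 3.07 (SE 0.13), to mean signals of 8.02 and 8.55, which lie above the 6.95 and 5.96 of WT undifferentiated cells. Whether these probe sets lie in the disrupted stretch of each gene was not stated, so their signal does not measure the loss of the enzymes. Adipoq, which encodes the adipocyte hormone adiponectin, rose by 7.41 (SE 0.12) in D1D2KO cells and by 6.03 (SE 0.12) in WT cells on differentiation. All 10 adipocyte markers examined rose in both genotypes, and the log2 of their summed signal was 14.29 to 14.49 in D1D2KO differentiated and 14.02 to 14.18 in WT differentiated samples. In undifferentiated samples it was 9.19 to 9.23 in D1D2KO and 9.46 to 9.50 in WT cells. Of 10 fibroblast markers, 9 fell in D1D2KO and 8 in WT cells, and of 7 macrophage markers 6 fell in each genotype. In bulk samples fewer cells of a type and less RNA per cell cannot be told apart. For these groups, what the markers contribute to the differences of the carriers was not tested.

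The level of a carrier can be placed among all genes measured, although signals of different probe sets are not comparable per molecule. Slc25a4, the ADP/ATP carrier of heart and muscle, had the highest mean signal of the family, 11.34, and stood at percentile 99.5 of all genes. Slc25a5, the ADP/ATP carrier of proliferating cells, followed at 10.66 and percentile 98.9. Slc25a3, which brings phosphate into the matrix, stood at percentile 96.9 and Slc25a39, a glutathione carrier, at percentile 94.2. The lowest were Slc25a54, at 2.98, and Slc25a31, the ADP/ATP carrier of the male germ line, at 3.36. Together with Slc25a21 these were at or under the lower quartile of genes (4.41 to 4.68) on every array. Slc25a54 had 3.24, 2.99 and 2.90 in D1D2KO differentiated, 2.97, 2.81 and 2.99 in D1D2KO undifferentiated, 3.17, 2.86 and 3.04 in WT differentiated and 2.93, 3.01 and 2.91 in WT undifferentiated samples, with all 4 groups overlapping. Slc25a2, Slc25a34, Slc25a48 and Slc25a53 were at or under it on some arrays. A fold change of such a gene is uncertain, since no detection calls were used here.

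Differentiation was the larger influence on the family, and most of the carriers it moved were moved in both genotypes. In D1D2KO cells 19 of 43 carriers rose and 8 fell, which is 62.8% of the family, against 36.7% of all genes called (15.4% higher and 21.2% lower). In WT cells 16 rose and 6 fell, 51.2% of the family against 34.1% of all genes (14.7% higher and 19.4% lower). The median difference over the 43 carriers was 0.19 in D1D2KO and 0.12 in WT cells, while over all genes it was 0.01 in D1D2KO and 0.02 in WT cells. Differentiated and undifferentiated samples did not overlap for 31 carriers in D1D2KO cells (48.1% of all genes), 22 of them higher (21.5%) and 9 lower (26.6%). In WT cells this held for 27 carriers (43.9% of all genes), 17 higher (19.9%) and 10 lower (24%). The same 15 carriers rose in both genotypes, a call made for 11% of all genes, and the same 6 fell in both (16.5% of all genes). None of the 43 was called in opposite directions (0.0552% of all genes). In D1D2KO cells 4 carriers rose by at least 2-fold (3.56% of all genes) and 1 fell by at least 2-fold (2.93%), and in WT cells 2 rose (2.60%) and 1 fell (1.99%) by that much. Another 15 carriers were called in neither genotype, for which the share of all genes was not computed.

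**Figure D1:**
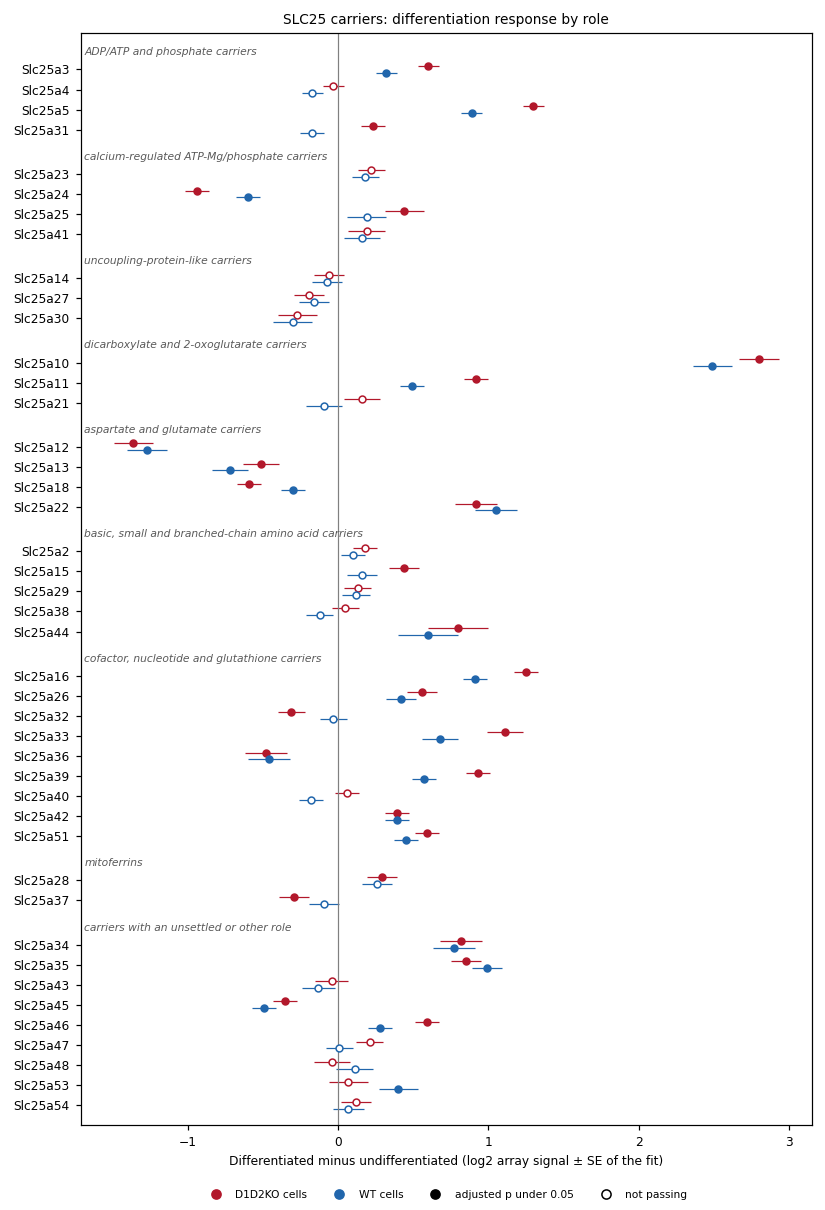
Difference between differentiated and undifferentiated cells for all 43 carriers, grouped by role, on the log2 scale with the SE of the fit (3 samples a group); filled points passed an adjusted p of 0.05. Slc25a10 stands far to the right of all others at 2.80 in D1D2KO and 2.49 in WT cells, and Slc25a12 farthest to the left at -1.36 and -1.27.

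The dicarboxylate carrier Slc25a10 rose most. This protein exchanges malate or succinate for phosphate or other dicarboxylates and is abundant in white fat. Its signals in D1D2KO cells were 9.94, 9.71 and 9.39 after differentiation, against 6.9, 6.81 and 6.91 before it. In WT cells they were 9.60, 9.21 and 9.64 in differentiated samples, against 7.0, 6.92 and 7.08 in undifferentiated ones. No differentiated sample came within 2 log2 units of an undifferentiated one of its genotype. The rise was 2.80 (SE 0.13), or 6.98-fold, in D1D2KO cells and 2.49 (SE 0.13), or 5.61-fold, in WT cells (limma, adjusted p = 1.81e-11 and 1.23e-10). At the other end was Slc25a12 (aralar), the calcium-activated aspartate/glutamate carrier of brain and muscle, which is part of the malate-aspartate shuttle. It had signals of 7.48, 7.5 and 7.08 in D1D2KO differentiated cells, against 8.71, 8.76 and 8.68 in D1D2KO undifferentiated cells. WT differentiated samples had 7.84, 7.32 and 7.78, against 8.84, 9.01 and 8.92 in WT undifferentiated ones. Here too the states did not overlap, and the difference was -1.36 (SE 0.13) in D1D2KO and -1.27 (SE 0.13) in WT cells (limma, adjusted p = 1.69e-07 and 5.68e-07), which left 38.9% of the undifferentiated signal in D1D2KO and 41.4% in WT cells.

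The promoters of these extremes are shown because they carry opposite responses, and that of Slc25a3 because it holds the most matches among the responding carriers. Each is the 250 bases before the annotated transcription start, from RefSeq on GRCm38.p6, written 5′ to 3′ on the strand of the gene: chr11:120491587-120491836, plus strand, for Slc25a10, chr2:71367756-71368005, minus strand, for Slc25a12, and chr10:91123968-91124217, minus strand, for Slc25a3. Promoters were found for 33 of the 43 carriers. Capitals mark the matches to motifs of factors that drive nuclear genes of mitochondria, which lie in Slc25a3 only among these sequences.
Slc25a10: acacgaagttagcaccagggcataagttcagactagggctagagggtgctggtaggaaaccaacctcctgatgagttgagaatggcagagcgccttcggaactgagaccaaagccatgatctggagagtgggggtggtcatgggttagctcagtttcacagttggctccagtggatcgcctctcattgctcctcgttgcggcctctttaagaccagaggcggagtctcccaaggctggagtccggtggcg
Slc25a12: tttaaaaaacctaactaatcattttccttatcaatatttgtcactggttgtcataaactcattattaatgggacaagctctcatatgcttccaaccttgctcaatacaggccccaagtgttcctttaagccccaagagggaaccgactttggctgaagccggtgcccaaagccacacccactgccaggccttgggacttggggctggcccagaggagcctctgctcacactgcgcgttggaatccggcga
Slc25a3: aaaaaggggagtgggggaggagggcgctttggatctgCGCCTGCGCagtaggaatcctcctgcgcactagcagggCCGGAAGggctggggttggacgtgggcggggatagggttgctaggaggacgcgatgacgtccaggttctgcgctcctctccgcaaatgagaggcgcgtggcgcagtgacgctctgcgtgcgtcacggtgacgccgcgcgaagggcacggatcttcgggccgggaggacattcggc
Motifs were searched on both strands. Some genes have several promoters, and a gene was counted if any of them held a match, so every share here is of genes with a promoter. GCGCANGCG, a core of sites bound by NRF1, was found for 2 of 33 carriers (6.06%), Slc25a3 and Slc25a31, and for 5.86% of all genes. CCGGAAG, bound by ETS factors such as GABP, was found in 4 (12.1%), those of Slc25a3, Slc25a38, Slc25a4 and Slc25a54, and in 7.83% of all. The ETS match of Slc25a3 starts 175 bases before the transcription start and its NRF1 match 213 bases before. TCACNCCAC, a sequence of SREBP sites, was found in 1 carrier promoter, that of Slc25a18, and in 1.22% of all. TCAAGGTCA, bound by estrogen-related receptors, and 2 copies of AGGTCA with 1 base between, the direct repeat of PPAR sites, were found in 0 carrier promoters, and in 0.422% and 0.0407% of all. The letters describe these windows and do not show a bound site.

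Of the other dicarboxylate carriers, Slc25a11 exchanges malate for 2-oxoglutarate and is the partner of aralar in the malate-aspartate shuttle. It rose by 0.92 (SE 0.08) in D1D2KO and 0.49 (SE 0.08) in WT cells (limma, adjusted p = 6.15e-08 and 9.81e-05). Slc25a21, the 2-oxoadipate carrier, had differences of 0.16 in D1D2KO and -0.09 in WT cells at a dim signal and was called in neither. The shuttle's carriers thus moved in opposite directions in both genotypes, Slc25a11 higher and Slc25a12 lower. Of the 4 shuttle enzymes, the malate dehydrogenases Mdh1 and Mdh2 rose by 1.73 and 1.29 in D1D2KO cells and by 1.43 and 0.92 in WT cells. The aspartate aminotransferase Got2 rose by 0.37 in D1D2KO cells and was not called in WT cells (0.13). Got1 fell by 0.45 in WT cells and was not called in D1D2KO cells (-0.11).

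The 4 carriers of aspartate and glutamate were all called in both genotypes, with 3 lower (16.5% of all genes) and 1 higher (11% of all genes). Slc25a13 (citrin), the aspartate/glutamate carrier of liver, had 5.47, 5.75 and 5.60 in D1D2KO differentiated samples, against 6.06, 6.24 and 6.06 before differentiation. In WT cells it had 5.97, 5.51 and 5.53 in differentiated samples, against 6.52, 6.45 and 6.21 in undifferentiated ones. The states did not overlap, and the differences were -0.51 (SE 0.12) in D1D2KO and -0.72 (SE 0.12) in WT cells (limma, adjusted p = 0.0027 and 0.000154). The 2 glutamate carriers, which bring glutamate into the matrix with a proton, moved apart. Slc25a22 had 7.51, 7.25 and 6.84 in D1D2KO differentiated cells, against 6.34, 6.13 and 6.39 in undifferentiated ones. Its WT signals were 7.39, 7.10 and 7.55 in differentiated cells, against 6.24, 6.37 and 6.28 in undifferentiated ones. It rose by 0.92 (SE 0.14) in D1D2KO and by 1.05 (SE 0.14), or 2.06-fold, in WT cells (limma, adjusted p = 5.23e-05 and 1.69e-05). Slc25a18 had 5.92, 5.87 and 5.84 in D1D2KO differentiated cells, against 6.5, 6.46 and 6.46 in undifferentiated ones. WT differentiated cells had 5.89, 5.97 and 5.67, against 6.14, 6.09 and 6.21 in WT undifferentiated ones. It fell by 0.59 (SE 0.08) in D1D2KO and by 0.30 (SE 0.08) in WT cells (limma, adjusted p = 2.06e-05 and 0.0101). The WT call of Slc25a18 ended without WT differentiated replicate 3 (adjusted p = 0.0634).

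Among the ADP/ATP and phosphate carriers, Slc25a5 changed most. It had 11.38, 11.32 and 11.26 in D1D2KO differentiated cells, against 10.03, 10.03 and 9.99 in undifferentiated ones, and 11.10, 11.06 and 11.13 in WT differentiated cells, against 10.12, 10.27 and 10.22 in WT undifferentiated ones. D1D2KO differentiated samples lay above WT differentiated ones, as for 16.7% of all genes. That genotype difference of 0.22 (SE 0.07) was not called (limma, adjusted p = 0.0563). It passed in some alternatives, such as quantile normalization (limma, adjusted p = 0.0171). All differentiated samples lay above all undifferentiated ones. The rise on differentiation was 1.30 (SE 0.07), or 2.47-fold, in D1D2KO and 0.89 (SE 0.07), or 1.86-fold, in WT cells (limma, adjusted p = 3.32e-10 and 5.81e-08). Its other 2 probe sets gave 1.28 and 1.30 in D1D2KO and 0.90 and 0.91 in WT cells. Slc25a5 has near-identical copies in the genome, so which transcripts these probe sets read is uncertain. Slc25a3 rose by 0.60 (SE 0.07) in D1D2KO and 0.32 (SE 0.07) in WT cells (limma, adjusted p = 4.05e-06 and 0.00221). Slc25a4, the brightest carrier, was not called in either genotype: it had 11.35, 11.33 and 11.31 in D1D2KO differentiated cells, against 11.38, 11.40 and 11.31 in undifferentiated ones, and 11.19, 11.26 and 11.27 in WT differentiated cells, against 11.35, 11.45 and 11.44 in WT undifferentiated ones. The difference was -0.03 (SE 0.07) in D1D2KO and -0.17 (SE 0.07) in WT cells, and WT differentiated samples lay below WT undifferentiated ones. This WT fall passed among genes above the median signal and with a trended and robust variance prior (limma, adjusted p = 0.0368 and 0.032). The dim Slc25a31 had 3.52, 3.42 and 3.55 in D1D2KO differentiated cells, against 3.17, 3.37 and 3.27 in undifferentiated ones, and it rose by 0.23 (SE 0.08; adjusted p = 0.0305). In WT cells it had 3.29, 3.30 and 3.18, against 3.45, 3.38 and 3.46 in WT undifferentiated ones, a difference of -0.17 that did not pass. With the replicate number as a block, its D1D2KO call ended (adjusted p = 0.0615), as it did without D1D2KO undifferentiated replicate 1 or 3 or D1D2KO differentiated replicate 1 or 3, and with a trended and robust variance prior (largest adjusted p = 0.149).

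The cofactor, nucleotide and glutathione carriers had the largest number of members that rose, 6 of 9 in both genotypes, while 2 fell in D1D2KO and 1 in WT cells. By share they were level with the dicarboxylate and 2-oxoglutarate carriers, of which 2 of 3 rose in both genotypes. Of the ADP/ATP and phosphate carriers 3 of 4 rose in D1D2KO cells, a larger share, and 2 of 4 in WT cells, a smaller one. Among all genes 15.4% rose in D1D2KO and 14.7% in WT cells. Slc25a16, which takes part in the supply of coenzyme A to the matrix, had 7.99, 8.10 and 7.93 in D1D2KO differentiated cells, against 6.71, 6.76 and 6.81 in undifferentiated ones. Its WT signals were 7.70, 7.80 and 7.67 in differentiated cells, against 6.80, 6.89 and 6.74 in WT undifferentiated ones. The rise was 1.25 (SE 0.08), or 2.37-fold, in D1D2KO and 0.91 (SE 0.08), or 1.88-fold, in WT cells (limma, adjusted p = 1.15e-09 and 8.71e-08), with no overlap between states. Slc25a33, a carrier of pyrimidine nucleotides, had 6.06, 5.94 and 5.96 in D1D2KO differentiated cells, against 4.89, 5.00 and 4.75 in undifferentiated ones, and 5.55, 5.95 and 5.96 in WT differentiated cells, against 5.25, 5.27 and 4.89 in WT undifferentiated ones. It rose by 1.11 (SE 0.12), or 2.16-fold, in D1D2KO and by 0.68 (SE 0.12) in WT cells (limma, adjusted p = 9.64e-07 and 0.000239). Slc25a36, the other pyrimidine nucleotide carrier, fell by 0.48 (SE 0.14) in D1D2KO and by 0.46 (SE 0.14) in WT cells (limma, adjusted p = 0.0119 and 0.0169), a pair of carriers of like substrates that moved in opposite directions. Its D1D2KO call ended without D1D2KO differentiated replicate 3 (adjusted p = 0.0542), and its WT call without WT differentiated replicate 2 or 3 or WT undifferentiated replicate 1 or 2 (largest adjusted p = 0.069). Slc25a39, a glutathione carrier, rose by 0.93 in D1D2KO and 0.57 in WT cells, whereas its relative Slc25a40 was called in neither (0.06 in D1D2KO and -0.18 in WT cells). Slc25a42, which carries coenzyme A, rose by 0.39 in both genotypes. Slc25a51, the NAD carrier, rose by 0.59 in D1D2KO and 0.45 in WT cells, and the S-adenosylmethionine carrier Slc25a26 rose by 0.56 in D1D2KO and 0.42 in WT cells. Slc25a32, which carries folates and FAD, fell by 0.31 (SE 0.09) in D1D2KO cells (limma, adjusted p = 0.0105), while its WT difference was -0.03. That call ended without D1D2KO differentiated replicate 3 (adjusted p = 0.0522).

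**Figure D2:**
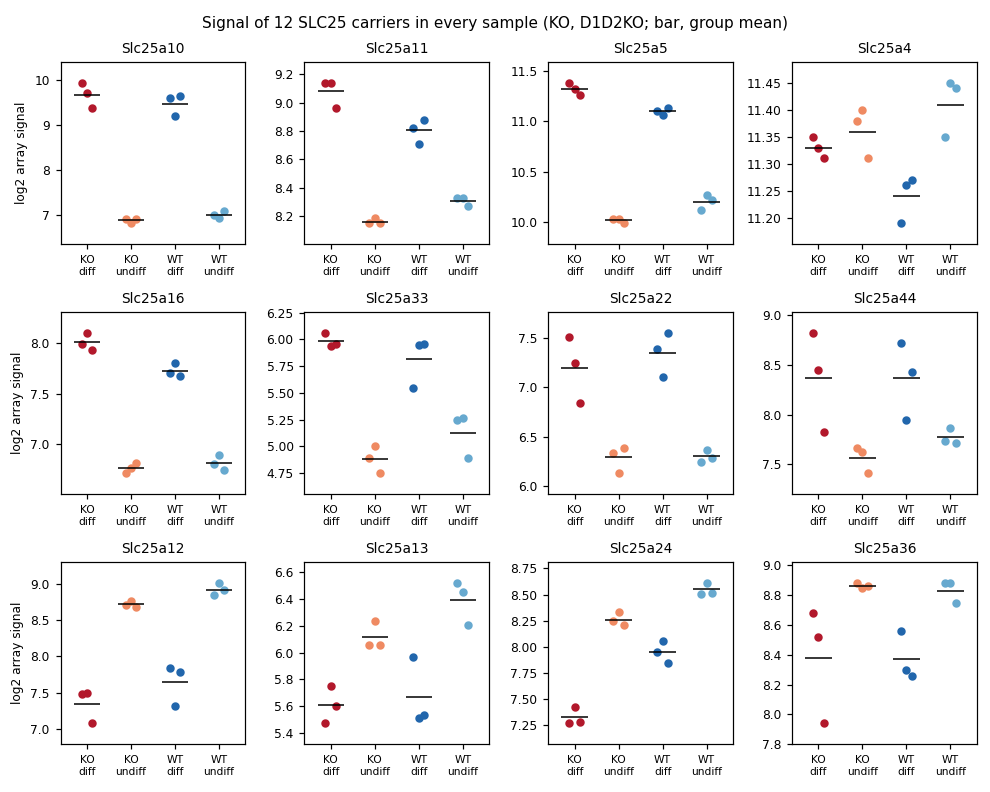
Log2 array signal of single samples for carriers named in the text, with D1D2KO differentiated, D1D2KO undifferentiated, WT differentiated and WT undifferentiated samples as points and the group mean as a line; each panel has its own axis range. Slc25a10 lies between 9.21 and 9.94 in differentiated and between 6.81 and 7.08 in undifferentiated samples, and Slc25a24 lies lowest in D1D2KO differentiated samples.

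The carriers that exchange ATP-Mg for phosphate, and so set the adenine nucleotide content of the matrix, did not move together. Slc25a24 had 7.27, 7.43 and 7.28 in D1D2KO differentiated cells, against 8.25, 8.33 and 8.21 in undifferentiated ones, and 7.95, 8.06 and 7.85 in WT differentiated cells, against 8.51, 8.61 and 8.52 in WT undifferentiated ones. Each of the 4 groups was separate from the others. The fall was 0.94 (SE 0.08) in D1D2KO and 0.60 (SE 0.08) in WT cells (limma, adjusted p = 6.94e-08 and 2.04e-05), so that 52.2% of the undifferentiated signal was left in D1D2KO and 66.2% in WT cells. Slc25a25, a paralogue, rose by 0.44 (SE 0.13) in D1D2KO cells (limma, adjusted p = 0.0143), a call that ended without D1D2KO differentiated replicate 1 or 2 (largest adjusted p = 0.0769). Its WT difference of 0.19 did not pass. Slc25a23 and Slc25a41 were called in neither genotype, at 0.22 and 0.19 in D1D2KO and 0.18 and 0.16 in WT cells. The D1D2KO rise of Slc25a23 passed in some alternatives, such as quantile normalization (limma, adjusted p = 0.0204).

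The amino acid carriers outside the glutamate group mostly stayed below the threshold. Slc25a44, which carries branched-chain amino acids, rose by 0.80 (SE 0.20) in D1D2KO and 0.60 (SE 0.20) in WT cells (limma, adjusted p = 0.00394 and 0.0285). It was the carrier with the widest spread, at 8.82, 8.45 and 7.82 in D1D2KO differentiated and 8.72, 7.95 and 8.43 in WT differentiated samples, against 7.41 to 7.66 and 7.71 to 7.87 in the undifferentiated samples of the same genotypes. Its WT call ended with a trended and robust variance prior, or without WT differentiated replicate 1 or 3 or WT undifferentiated replicate 1 or 3 (largest adjusted p = 0.149). The ornithine carrier Slc25a15 rose by 0.44 in D1D2KO cells and was not called in WT cells (0.16). Slc25a2, a relative of the ornithine carrier, Slc25a29, for basic amino acids, and Slc25a38, for glycine in heme synthesis, were called in neither, with differences from 0.05 to 0.18 in D1D2KO and from -0.12 to 0.12 in WT cells.

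The mitoferrins, which bring iron into the matrix, had small differences. Slc25a28 (mitoferrin 2) rose by 0.29 (SE 0.10; adjusted p = 0.0283) and Slc25a37 (mitoferrin 1) fell by 0.29 (SE 0.10; adjusted p = 0.0277) in D1D2KO cells. With the replicate number as a block the call of Slc25a28 ended (adjusted p = 0.0593), as it did without D1D2KO undifferentiated replicate 1 or 2 or D1D2KO differentiated replicate 1 (largest adjusted p = 0.154). The call of Slc25a37 ended without D1D2KO undifferentiated replicate 1 or 3 or D1D2KO differentiated replicate 3 (largest adjusted p = 0.124). In WT cells the differences of 0.26 and -0.09 did not pass. That of Slc25a28 did pass in some alternatives, such as quantile normalization (limma, adjusted p = 0.0322). Of 6 genes of mitochondrial iron use, 5 rose in D1D2KO and 4 in WT cells, among them Alas1, the entry enzyme of heme synthesis, by 2.51 in D1D2KO and 2.07 in WT cells. The cysteine desulfurase Nfs1 rose by 1.21 in D1D2KO and 0.92 in WT cells. The 3 carriers most like the uncoupling proteins, Slc25a14, Slc25a27 and Slc25a30, were called in neither genotype, with differences from -0.27 to -0.06 in D1D2KO and from -0.30 to -0.07 in WT cells. The WT fall of Slc25a30 passed in some alternatives, such as the fit of only the groups compared (limma, adjusted p = 0.0216).

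Among the 9 carriers of unsettled or other role, 3 rose and 1 fell in D1D2KO cells, and 4 rose and 1 fell in WT cells. Of all genes, 15.4% rose and 21.2% fell in D1D2KO cells, and 14.7% rose and 19.4% fell in WT cells. Slc25a35 had 6.42, 6.25 and 6.36 in D1D2KO differentiated cells, against 5.44, 5.59 and 5.47 in undifferentiated ones, and 6.07, 6.10 and 6.41 in WT differentiated cells, against 5.23, 5.27 and 5.11 in WT undifferentiated ones. It rose by 0.85 (SE 0.10) in D1D2KO and 0.99 (SE 0.10) in WT cells (limma, adjusted p = 1.64e-06 and 3.55e-07). The neighbouring member by number, Slc25a34, rose by 0.82 in D1D2KO and 0.77 in WT cells. Slc25a46, a protein of the outer membrane that takes part in mitochondrial division, rose by 0.59 (SE 0.08) in D1D2KO and 0.28 (SE 0.08) in WT cells (limma, adjusted p = 5.95e-06 and 0.00733). Slc25a45 had 6.45, 6.37 and 6.53 in D1D2KO differentiated cells, against 6.92, 6.70 and 6.78 in undifferentiated ones, and 6.36, 6.35 and 6.36 in WT differentiated cells, against 6.88, 6.87 and 6.80 in WT undifferentiated ones. It fell by 0.35 (SE 0.08) in D1D2KO and by 0.49 (SE 0.08) in WT cells (limma, adjusted p = 0.00205 and 0.000106), with no overlap between states. The low-signal Slc25a53 rose in WT cells by 0.40 (SE 0.13; adjusted p = 0.0215), with overlapping samples, and had a difference of 0.07 in D1D2KO cells; that call ended in 6 alternatives, 3 of them without WT differentiated replicate 1 or 2 or WT undifferentiated replicate 2 (largest adjusted p = 0.141). Slc25a43, Slc25a47, Slc25a48 and Slc25a54 were called in neither.

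Genes that serve the carriers were called as well. Of 12 genes of carrier import and assembly, 11 rose in D1D2KO and 8 in WT cells and none fell, with Tomm40, the import pore of the outer membrane, at 0.93 in D1D2KO and 0.61 in WT cells. The 3 outer membrane channels Vdac1, Vdac2 and Vdac3 and the pyruvate carrier subunit Mpc1 rose in both, Mpc1 by 2.50 in D1D2KO and 2.16 in WT cells. Of 7 relatives kept apart from the 43, 6 rose and 1 fell in both genotypes, with the dim Ucp1 among those that rose. Slc25a1, the citrate carrier, rose by 2.38 in D1D2KO and 2.22 in WT cells, the uncoupling protein gene Ucp3 by 1.97 in D1D2KO and 2.27 in WT cells, and Slc25a20, the carnitine/acylcarnitine carrier, by 1.25 in D1D2KO and 0.73 in WT cells. The one that fell was Mtch1, which encodes a carrier homologue of the outer membrane, by 0.78 in D1D2KO and 0.70 in WT cells. Of 8 regulators of mitochondrial gene expression, 6 rose and 1 fell in D1D2KO and 5 rose in WT cells. The one that fell was Nrf1, with a difference of -0.32 in D1D2KO cells and -0.16 in WT cells, the latter not called. Gabpa was called in neither (0.03 in D1D2KO and -0.09 in WT cells). Pparg, the adipogenic nuclear receptor, rose by 4.10 in D1D2KO and 3.97 in WT cells, and the coactivators Ppargc1a and Ppargc1b rose by 1.56 and 1.51 in D1D2KO and by 0.93 and 0.76 in WT cells.

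The differentiation response was then compared between the genotypes, as the difference in D1D2KO cells minus that in WT cells. No carrier passed the test of this difference, and 0.747% of all genes were called higher and 0.712% lower (1.46% in all). Before adjustment, 9 carriers had a positive and 3 a negative value at p under 0.05 with limma, against 11.2% of all genes in either direction. The 3 negative ones, Slc25a18, Slc25a24 and Slc25a32, were carriers with a deeper estimated fall in D1D2KO cells. The smallest adjusted p values were those of Slc25a5 at 0.0684 (difference 0.41, SE 0.11), Slc25a11 at 0.0807 (0.42, SE 0.11) and the dim Slc25a31 at 0.0982 (0.40, SE 0.11). Slc25a5 and Slc25a11 were called in 4 alternatives, among them the fit without D1D2KO differentiated replicate 3 (adjusted p = 0.0466 and 0.0306), and 2 further carriers, Slc25a16 and Slc25a39, with array weights. Of the 43 carriers 32 had a positive difference (74.4%), where 47.6% of all genes had one, and the median was 0.09 against -0.01. In the same comparison 10 of 10 adipocyte markers were positive, with a median of 0.53 and 3 called higher, and 0 of 10 fibroblast markers were positive, with a median of -0.27 and 1 called lower. All 7 brown adipocyte markers and 2 of 8 muscle markers were positive, with 1 of each called higher. Of the 7 brown adipocyte markers, 5 rose on differentiation in each genotype. Dio2 fell, by 1.86 in D1D2KO and 1.94 in WT cells, and Ucp1 was dim on every array. The part of these markers in the carriers' values was not tested. Without D1D2KO differentiated replicate 1 the number of positive carriers was 25 (46.5% of all genes) and without WT differentiated replicate 2 it was 26 (47.8% of all genes). Of the 15 carriers that rose in both genotypes, 12 had the larger estimate in D1D2KO cells and 2, Slc25a22 and Slc25a35, in WT cells. Slc25a42 had 0.39 in both, at the 2 decimals compared. Among the 6 that fell in both, the estimate was deeper in D1D2KO cells for 4. The matching shares of all genes were not computed, so these counts are not shown to be particular to the family.

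**Figure D3:**
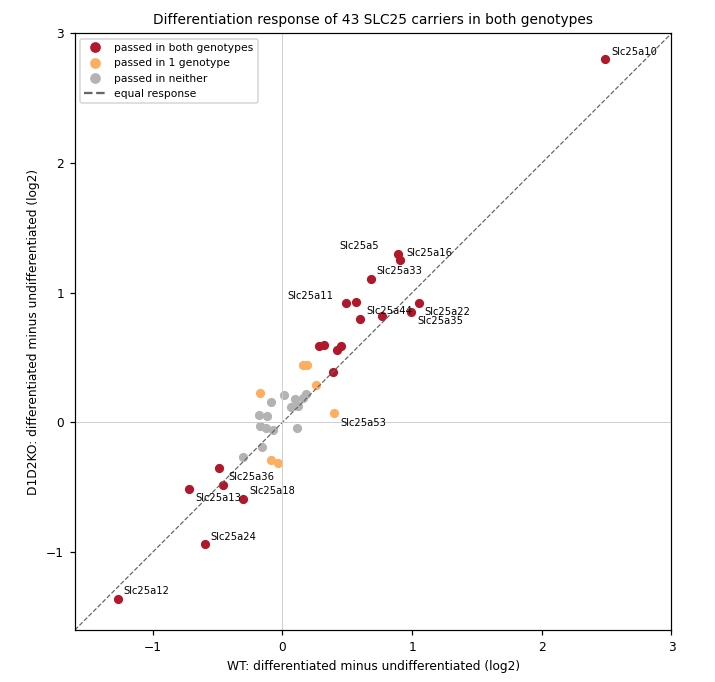
Differentiation response in D1D2KO cells (vertical) against that in WT cells (horizontal), in log2 units, with 1 point for each of the 43 carriers, coloured by whether it passed the test in both genotypes, in 1 or in neither. Of the carriers that rose in both, Slc25a22 and Slc25a35 lie below the dashed line of equal response; of those that fell in both, Slc25a12, Slc25a18, Slc25a24 and Slc25a36 lie below it, where the fall was deeper in D1D2KO cells; no difference between the responses passed the test.

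Spread was wider in differentiated than in undifferentiated samples of the family. The median SD of a carrier was 0.12 in D1D2KO differentiated and 0.06 in D1D2KO undifferentiated samples, and 0.12 in WT differentiated and 0.07 in WT undifferentiated ones. Among the 15 carriers that rose in both genotypes, D1D2KO differentiated replicate 3 was the lowest of its group in 10 and WT differentiated replicate 2 in 9. These were also the 2 arrays with the lowest weights, 0.373 and 0.409, when limma weighted arrays by their agreement with their group over all genes. The spread and the counts of lowest samples were not computed for all genes, so they are not shown to be particular to the family. How the spread and these 2 arrays bear on the comparison between genotypes was not tested.

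Between genotypes in differentiated cells, 6 carriers were higher in D1D2KO and 2 lower, which is 18.6% of the family against 13.7% of all genes (6.25% higher and 7.42% lower). In 35 of the 43 carriers (81.4%) the difference was positive, against 55.2% of all genes, with a median of 0.13 against 0.03. After each array was centred on its median 29 were positive, against 48.4% of all genes. Among carriers above the median signal 20 of 26 were positive, against 33.7% of all such genes. The adipocyte markers were higher in D1D2KO cells at the same time, at 14.29 to 14.49 against 14.02 to 14.18 in WT cells for the summed level, and 6 of 10 of them passed the test. Of 10 fibroblast markers 5 were lower, with a summed level of 14.53 to 14.64 in D1D2KO and 14.84 to 14.93 in WT cells. Of 8 muscle markers 4 were called higher and 1 lower, with a summed level of 9.88 to 10.0 in D1D2KO and 9.46 to 9.55 in WT cells, and Actc1, a muscle actin, at a mean of 8.47 in D1D2KO and 7.26 in WT cells. Of 7 brown adipocyte markers 3 were called higher, with a summed level of 10.75 to 11 in D1D2KO and 10.07 to 10.62 in WT cells; the markers' part in the carriers' difference was not tested. Samples of the genotypes did not overlap for 17 carriers (30.9% of all genes), 13 that were higher in D1D2KO cells (16.7% of all genes) and 4 that were lower (14.2% of all genes).

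The carrier with the largest genotype difference was Slc25a24. Its signals of 7.27, 7.43 and 7.28 in D1D2KO and 7.95, 8.06 and 7.85 in WT differentiated cells differed by -0.63 (SE 0.08; limma, adjusted p = 0.000115), which left 64.7% of the WT signal, and this was the one genotype call of the family that held in every alternative. The folate and FAD carrier Slc25a32 had 6.96, 6.96 and 6.75 in D1D2KO and 7.16, 7.37 and 7.16 in WT differentiated cells, a difference of -0.34 (SE 0.09; adjusted p = 0.0211). Higher in D1D2KO cells was Slc25a2, at 4.73, 4.69 and 4.72, against 4.39, 4.32 and 4.36 in WT cells, a difference of 0.36 (SE 0.08; limma, adjusted p = 0.00983). Slc25a47, a carrier of liver, had 6.0, 5.90 and 6.11 in D1D2KO and 5.71, 5.55 and 5.71 in WT cells, a difference of 0.35 (SE 0.09; limma, adjusted p = 0.0149). Neither was called for differentiation in either genotype, and Slc25a2 lay near the lower quartile of genes. The other 4 that were higher were among the carriers that rose on differentiation. Slc25a11 had 9.14, 9.14 and 8.96 in D1D2KO and 8.82, 8.71 and 8.88 in WT cells (0.28, SE 0.08), and Slc25a16 had 7.99, 8.10 and 7.93 in D1D2KO against 7.70, 7.80 and 7.67 in WT cells (0.28, SE 0.08). Slc25a46 had 8.71, 8.59 and 8.59 in D1D2KO against 8.32, 8.28 and 8.44 in WT cells (0.28, SE 0.08), and Slc25a3 had 10.15, 10.14 and 10.10 in D1D2KO against 9.81, 9.94 and 9.91 in WT cells (0.25, SE 0.07). Their adjusted p values ran from 0.0222 to 0.037 (limma), and no sample of one genotype reached the other. These calls were not firm: without WT differentiated replicate 2 or D1D2KO differentiated replicate 1 the count of carriers higher in D1D2KO cells was 2, and without D1D2KO differentiated replicate 3 the count of lower ones was 1.

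**Figure D4:**
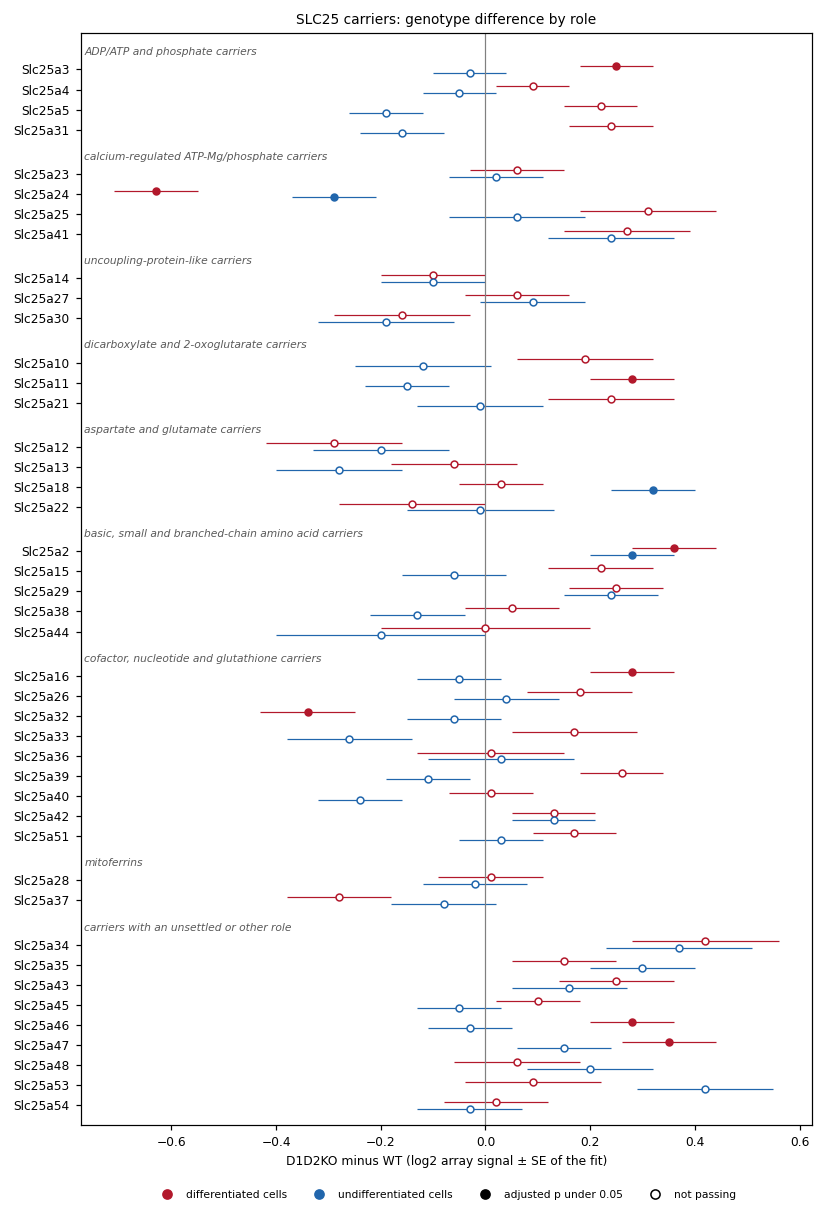
Difference between D1D2KO and WT cells for the 43 carriers by role, in log2 units with the SE of the fit; differentiated cells are in red above undifferentiated cells in blue, and filled points passed an adjusted p of 0.05. Slc25a24 lies farthest to the left in differentiated cells at -0.63, and most red points lie right of 0.

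Undifferentiated cells gave few genotype differences in the family, 2 higher and 1 lower, or 6.98% against 8.02% of all genes (4.40% higher and 3.62% lower). In the same samples 4 of 8 muscle markers were higher and 1 lower, among them Actc1 by 1.22 and Myh6 by 1.26, with a summed level of 10.40 to 10.62 in D1D2KO and 10.14 to 10.31 in WT cells. Of 10 adipocyte markers 1 was higher and 2 were lower, Fabp4 at -1.20 and Adipoq at -0.97, and 0 of 10 fibroblast markers were called. What the markers contribute here was not tested. Slc25a18 had 6.5, 6.46 and 6.46 in D1D2KO and 6.14, 6.09 and 6.21 in WT cells, a difference of 0.32 (SE 0.08; limma, adjusted p = 0.031). For Slc25a2 the signals were 4.66, 4.48 and 4.47 in D1D2KO and 4.39, 4.18 and 4.21 in WT cells (0.28, SE 0.08; adjusted p = 0.0476). Slc25a24 was lower, as in differentiated cells, at 8.25, 8.33 and 8.21 in D1D2KO and 8.51, 8.61 and 8.52 in WT cells (-0.29, SE 0.08; adjusted p = 0.0441). Each of the 3 calls ended in several alternatives, and leaving out any 1 of the 6 undifferentiated samples ended the call of Slc25a24 and left at most 1 of the higher ones. The genotypes did not overlap for 20 carriers (39.3% of all genes), 9 that were higher in D1D2KO (19.7% of all genes) and 11 that were lower (19.6% of all genes). The numbers of positive differences, 17 of 43, changed with the scaling: 14 after centring and 23 after quantile normalization. The share of all genes with a positive difference moved the same way: it was 53.4%, against 45.5% after centring and 58.9% after quantile normalization. In all genes the share of calls that were higher in D1D2KO cells changed as well: in undifferentiated cells it was 54.9%, against 32.3% after centring, 44.0% after quantile normalization and 23.8% among genes above the median signal. In differentiated cells it was 45.7%, against 29.5% after centring, 47.2% after quantile normalization and 23.2% above the median signal. These genotype differences and the difference in response share samples, since the difference in response is the one in differentiated cells minus the one in undifferentiated cells.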

How the data were processed

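Total RNA of 12 samples was read on a biotin-labelled array, per the labels. The deposited values are log2 signals of 35556 probe sets, normalized by the authors; the method is not given in the sources used here, and base 2 was inferred because the highest value, 14.17, exceeds 11.09, the natural log of the largest 16-bit reading. Of the probe sets, 21789 had 1 gene in the platform annotation, 1621 several and 12146 none listed; the first kind gave 19938 genes, and 43 carriers came from 47 probe sets. A linear model with 4 group means and 5 contrasts was fitted with limma 3.58.1 (R 4.3.3), two-sided, without a filter on signal, and tested on simulated data. Members, roles and lists were chosen with earlier results of these data known. Values for every sample were given for the 4 called carriers with the largest rise and fall in each contrast. They were also given for the 2 brightest and 2 dimmest carriers. For genotype in differentiated cells they were given for all 6 called higher, with Slc25a11 and Slc25a3. Slc25a44 was added after its values were seen. Equal replicate numbers correlated above 0.1 in every pair for D1D2KO differentiation alone (0.101 to 0.176), so those samples may be paired by number. The main fit did not pair them, and its SE and p-values treat all samples as unpaired. A block on the number was fitted only as an alternative. Alternatives were rescaling, signal filter, probe set mean, groups in the fit, variance prior, array weights, replicate block and leaving out each sample. The number of arrays limits the precision.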

Additional observations from a re-analysis of the deposited data

Results flagged for a closer look

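The difference between the genotypes in the response to differentiation passed the test for 0 carriers, for 2 genes of the pathway lists, for 6 cell type markers and for Dgat2. Tfrc, the transferrin receptor through which cells take up iron, had a difference of 1.19 (SE 0.27; limma, adjusted p = 0.0339). Its signals were 9.66, 9.71 and 9.06 in D1D2KO differentiated and 8.09, 8.18 and 7.75 in D1D2KO undifferentiated cells, against 9.07, 8.32 and 9.05 in WT differentiated and 8.48, 8.62 and 8.50 in WT undifferentiated cells. The differentiated samples of the genotypes overlapped. Ppargc1b, a coactivator of genes of mitochondria, had a difference of 0.76 (SE 0.17; limma, adjusted p = 0.0377), with 7.17, 7.04 and 6.96 in D1D2KO differentiated cells against 6.45, 5.95 and 6.42 in WT differentiated ones, and no overlap between them. Neither mitoferrin passed this test. Of the adipocyte markers, Fabp4 had a difference of 1.45 (SE 0.16), Adipoq of 1.38 (SE 0.17) and Retn of 0.62 (SE 0.15; limma, adjusted p = 0.0484). All 3 rose more in D1D2KO than in WT cells, Fabp4 by 6.70 in D1D2KO and 5.24 in WT cells. For Fabp4 and Adipoq the larger part of this lay in lower undifferentiated signals, and for Retn the smaller part did. Fabp4 had a mean of 5.95 in D1D2KO and 7.14 in WT undifferentiated cells, against 12.64 and 12.38 in differentiated cells. For Adipoq these means were 4.37 and 5.34, against 11.78 and 11.36, and for Retn 5.61 and 5.86, against 12.00 and 11.63. The brown adipocyte marker Cox8b had a difference of 0.98 (SE 0.17), with 8.45, 8.51 and 8.37 in D1D2KO differentiated cells against 7.05, 7.14 and 7.29 in WT differentiated ones. The fibroblast marker Thy1 had a difference of -0.72 (SE 0.14). The muscle marker Tnnt2 had one of 0.75 (SE 0.14), the fall being smaller in D1D2KO cells. For Dgat2 the difference was -1.20 (SE 0.18), with a rise of 3.07 in D1D2KO and 4.27 in WT cells.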

How the results depend on the processing

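Of 60 calls of single carriers, 40 held in every alternative and 0 changed sign: 21 of 27 in D1D2KO differentiation, 18 of 22 in WT differentiation, 1 of 8 for genotype in differentiated and 0 of 3 in undifferentiated cells. In D1D2KO differentiation the count of lower carriers, 8, ran from 5 to 9 when 1 sample was left out, with 5 without D1D2KO differentiated replicate 3; other counts of the differentiation contrasts stayed within 1.5 times. For genotype in undifferentiated cells the count of higher carriers, 2, was 0 with centring, 1 with quantile normalization, genes above the median signal or a trended and robust prior, 4 with only the groups compared, 6 with array weights and 5 with the replicate block, and 0 to 3 with 1 sample left out. The count of lower ones, 1, was 0 with quantile normalization, 2 with only the groups compared or array weights, 3 with the replicate block, and 0 to 1 with 1 sample left out. In differentiated cells the count of higher carriers, 6, was 2 with centring, 1 (Slc25a2) with only the groups compared, 1 with the replicate block and 2 to 8 with 1 sample left out. The block ended all 6 calls, and its 1 call was Slc25a34, not among them (adjusted p = 0.0406). The count of lower ones, 2, was 1 with either of these alternatives and 1 to 2 with 1 sample left out. For the difference in response the count of higher carriers, 0, was 2 among genes above the median signal or with the trended and robust prior, 4 with array weights and 0 to 2 with 1 sample left out. Some carriers without a differentiation call in the main fit gained one in an alternative. In WT cells these were Slc25a4, Slc25a23, Slc25a25, Slc25a28, Slc25a30, Slc25a31 and Slc25a40. In D1D2KO cells they were Slc25a23, Slc25a27, Slc25a30, Slc25a41 and Slc25a47. The causes of these changes with the processing were not tested. Equal replicate numbers correlated at -0.0146 to 0.184 for genotype in undifferentiated cells, at -0.233 to 0.117 in differentiated cells and at -0.0125 to 0.129 for WT differentiation, so there the number is not shown to pair samples; in D1D2KO differentiation the block ended the calls of Slc25a28 and Slc25a31 alone.

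Over all genes, 878 were called higher and 722 lower for genotype in undifferentiated cells, against 100 and 239 without WT undifferentiated replicate 2 and 2563 and 1661 with array weights. In differentiated cells 1246 and 1480 became 326 and 726 with the replicate block and 413 and 771 with only the groups compared. For the difference in response 149 and 142 became 77 and 99 without WT undifferentiated replicate 2 and 327 and 277 with array weights. With no detection calls used here, the lowest signals may be background, which limits Slc25a21, Slc25a31 and Slc25a54.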
